A study of Drosophila melanogaster with 39 samples.

Results

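The return of Piwi to piwi null ovaries was followed in total small RNA from 6 of the 39 libraries of the series, 3 from null ovaries and 3 from null ovaries that carry a wild type (wt) Piwi transgene. The libraries were chosen by their labels alone. The null flies were homozygous for Piwi>gal4, an allele in which a cassette of EGFP, a self-cleaving peptide and the yeast activator Gal4 was inserted by CRISPR at the start of piwi, so that the piwi promoter drives Gal4 in place of Piwi. The rescued flies were homozygous for the same allele and also carried UASp-FLAG-HA-Piwi with the wt specificity loop (wt transgene), at a site not given in the sources used here. Transgenic Piwi is therefore made only in cells in which the piwi promoter is active, and both genotypes express Gal4. Heterozygous Piwi>gal4 ovaries over the CyO balancer (control, 3 libraries) and 1 library of RNA bound to the tagged wt Piwi are given for orientation. The tables count reads by length and by mapping category and name no gene, so neither the level of piwi nor ovarian marker genes could be checked, and the age of the flies is not given in the sources used here.

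Piwi is the nuclear member of the Drosophila PIWI proteins. It binds Piwi-interacting RNAs (piRNAs), guides that are longer than the siRNAs of Ago2, and with them silences transposons at the level of chromatin in germline and somatic cells of the ovary. Mature piRNAs are shielded by their PIWI protein, and Aubergine and Ago3, the cytoplasmic PIWI proteins of the germline, carry piRNAs of their own. An ovary without Piwi can therefore still hold piRNAs. The methods say that reads of miRNAs, tRNAs and other structural RNAs were removed before alignment to the genome. After that step the lengths below 24 nt would hold siRNAs and other short fragments. The mapping categories of each library sum to its raw reads, and none of them is a category of removed reads. This sum does not show whether the counts were made after the removal. Whether any miRNA reads remained could not be checked.

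The null allele rests on a single cut in piwi (FBgn0004872), which lies on chromosome 2L from 10982205 to 10987420 on the minus strand of dm6, with its start codon at 10987330 to 10987332 in both of its 2 annotated transcripts. The guide oligo is shown because it defines the allele that all 6 libraries share. Its 19-base spacer is in capitals and the 4 bases of cloning overhang are in lower case.
piwi guide oligo: cttcGTCACTTAAAACTTCACAA
The study places its cut upstream of the start codon, and its position was not located here.

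Index primer 25 was used for replicate 1 of every genotype, 26 for replicate 2 and 27 for replicate 3, and libraries with a common primer are called an index pool below. Raw reads were 7445288, 22334362 and 11096595 in null replicates 1 to 3, and 12570446, 27194879 and 11406096 with the wt transgene. Of these, 5608706, 17673118 and 8411671 null reads and 10500991, 23201486 and 9503936 wt transgene reads mapped and were 20 to 30 nt long. At this depth the 95% Clopper-Pearson interval of any length share in the 6 libraries reached at most 0.0316 percentage points to either side, which covers counting error only. Most differences between libraries below are far wider than this. No source says that the replicates came from separate dissections, so that p-values measure only the spread between these libraries. In whole ovaries fewer cells of a type and less RNA per cell cannot be told apart, and since shares of a library sum to a fixed total, a higher share of one length class lowers another. The study reports that the null flies were sterile and that the wt transgene restored fertility and ovary morphology. Differences between the genotypes below therefore cannot be told apart from differences in the makeup of the ovary.

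Short reads took a larger share of the null libraries than of the wt transgene libraries, although 24–29 nt reads were the larger class in both. The most frequent length was 22 nt in null replicates 1 and 2 and 25 nt in null replicate 3, against 25 nt in wt transgene replicates 1 and 2 and 26 nt in replicate 3. The most frequent length was thus longer with the transgene in every index pool, and it was the same as in the control of that pool. In null replicates 1 and 2 the profile was a plateau from 22 to 25 nt, broken by a dip at 23 nt in replicate 1. With the transgene it had a main peak at 25 or 26 nt. A smaller peak at 22 nt stood above 23 nt in wt transgene replicates 1 (8.72% against 7.38%) and 3 (6.995% against 5.52%). The control had such a peak at 22 nt in every replicate.

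**Figure D1:**
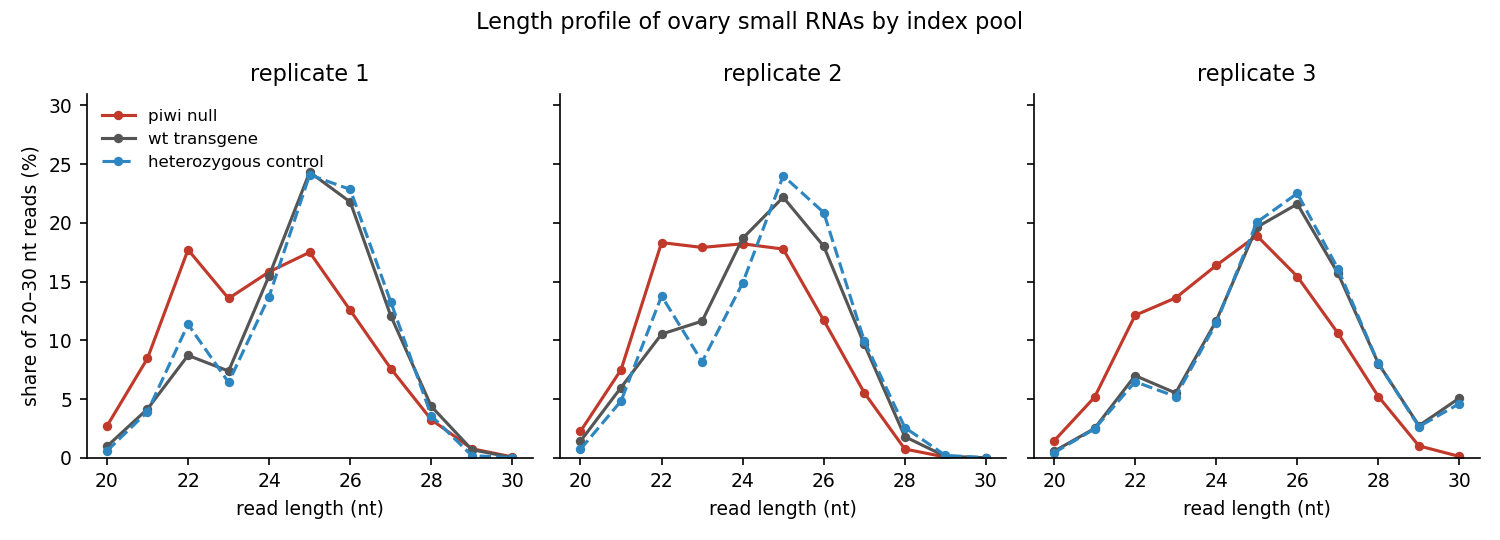
Share of each read length among the 20–30 nt reads (%), plotted against length (nt) in 1 panel per replicate number, for piwi null (red), wt transgene (gray) and heterozygous control (blue, dashed) libraries. Each line is 1 library. The null line lies above the other lines from 20 to 23 nt and below them from 25 to 27 nt in all 3 panels.

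Reads of 24–29 nt, the range that the study uses for piRNAs, had shares of 57.5%, 54.0% and 67.6% in null replicates 1 to 3 and of 78.7%, 70.4% and 79.3% with the wt transgene. Every wt transgene library was above every null library, with null replicate 3 and wt transgene replicate 2 the nearest to each other. The difference within an index pool was 21.2 points in replicate 1, 16.4 in replicate 2 and 11.8 in replicate 3. The mean difference of 16.5 points gave p = 0.10 when the 3 and 3 labels were exchanged in an exact permutation test (two-sided, as throughout), the lowest value that this design allows, and 0.2 after Benjamini-Hochberg adjustment over 6 length measures. Permuted within index pools, p was 0.25, again the smallest possible, so that neither design can pass 0.05.

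Reads of 20–23 nt made up 42.4%, 46.0% and 32.3% of null libraries and 21.2%, 29.6% and 15.6% of wt transgene libraries. All 3 null libraries were higher. The null libraries had 40.2% ± 7.08 (SD, n = 3) and the wt transgene libraries 22.1% ± 7.04 (SD, n = 3), a difference of -18.1 points (two-sided exact permutation test, p = 0.10, adjusted 0.2). Within pools the difference was -21.2, -16.4 and -16.8 points.

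The ratio of 24–29 nt to 20–23 nt reads, which leaves 30 nt reads aside, was 1.36, 1.18 and 2.09 in null ovaries and 3.71, 2.38 and 5.10 with the wt transgene. On the log2 scale the ratio was 0.58 ± 0.43 in null (SD, n = 3) and 1.83 ± 0.55 with the transgene (SD, n = 3). The log2 ratio differed by 1.25, and by 1.45, 1.02 and 1.29 in replicates 1 to 3 (two-sided exact permutation test, p = 0.10, adjusted 0.2). Replicate 3 was the library with the highest ratio in both genotypes and replicate 2 the one with the lowest. The same order of replicates stood in the control, with ratios of 3.48, 2.63 and 5.54.

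**Figure D2:**
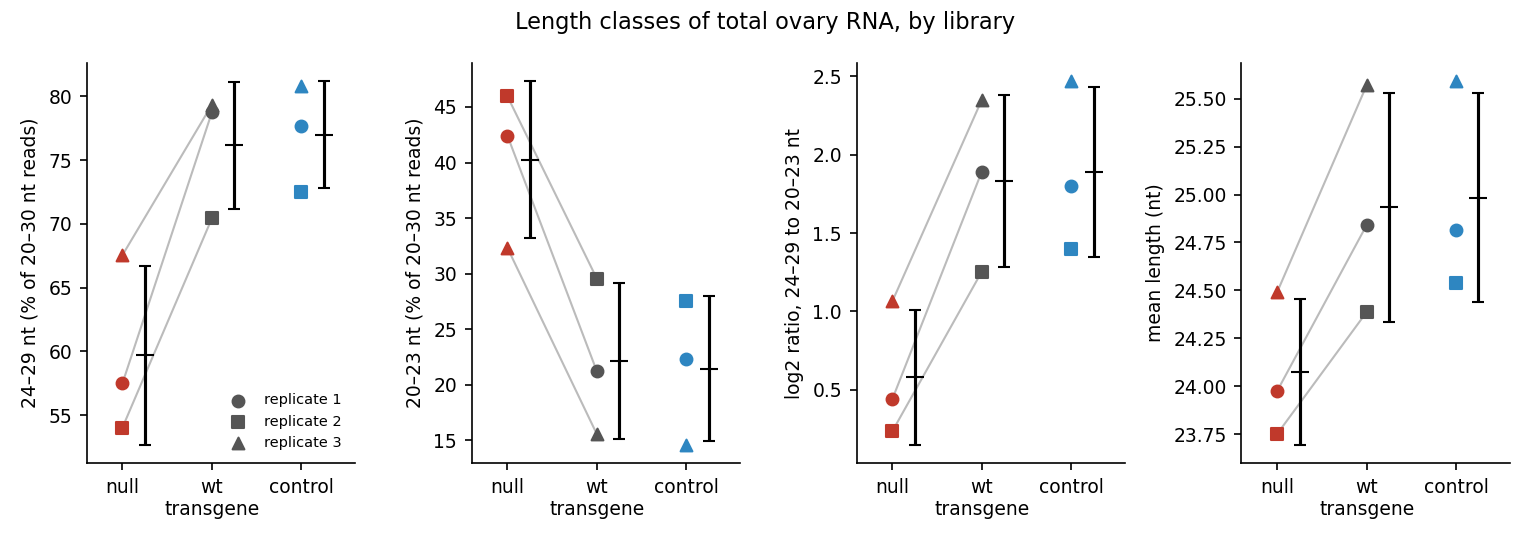
Share of 24–29 nt reads and of 20–23 nt reads (% of 20–30 nt reads), log2 ratio of these classes, and mean read length (nt) in null, wt transgene and control libraries. Symbols mark the replicate number, gray lines join null and wt transgene libraries of a number, and bars show mean ± SD (n = 3). The axes do not start at 0. All 3 lines run upward from null to wt transgene in every panel but that of the 20–23 nt share, where they run downward.

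Against all raw reads, 24–29 nt reads were 43.3%, 42.7% and 51.2% in null ovaries and 65.8%, 60.1% and 66.1% with the wt transgene. Reads of 20–23 nt were 32.0%, 36.4% and 24.5% of raw reads in null and 17.7%, 25.2% and 12.97% with the transgene. The direction of both classes therefore did not depend on the use of sized reads as the denominator. For 20–23 nt the values came close, with 24.5% in null replicate 3 and 25.2% in wt transgene replicate 2, and on this scale the genotypes overlapped.

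Mean read length was 23.98, 23.75 and 24.49 nt in null replicates 1 to 3 and 24.84, 24.39 and 25.57 nt with the wt transgene. It was longer with the transgene by 0.865, 0.636 and 1.08 nt within the pools, while null replicate 3 and wt transgene replicate 2 overlapped (mean difference 0.860 nt, two-sided exact permutation test, p = 0.2, adjusted 0.24). Among 24–29 nt reads alone the mean was 25.43, 25.13 and 25.59 nt in null and 25.59, 25.35 and 25.96 nt with the transgene. The piRNA-sized reads thus differed by less, 0.249 nt on average, and the genotypes overlapped (exact permutation test, p = 0.5, adjusted 0.5).

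Each of the 11 lengths was then compared on its counts, with the sized reads of a library as its size. With the 3 libraries of a genotype as plain replicates, 0 of 11 lengths passed an adjusted p of 0.05 in edgeR's quasi-likelihood test (percent of all lengths called 0), and 4 had an unadjusted p under 0.05 (20, 22, 23 and 26 nt). With the index pool as a block, 7 of 11 passed (63.6%), namely 20, 21, 22 and 23 nt, all lower with the transgene (36.4% of lengths), and 26, 27 and 28 nt, all higher (27.3%). Without replicate 1, 2 or 3 of both genotypes the block fit called 0 of 11, with 3, 5 and 3 lengths at an unadjusted p under 0.05. With 2 pools left this says little about which pool carries the change. The log2 fold changes of the 7 lengths kept their direction. They stayed close at 22 nt (-0.80, -0.91 and -0.91) and 26 nt (0.55, 0.64 and 0.71). They moved more at 20 nt (-1.02, -1.42 and -1.07), 21 nt (-0.68, -1.04 and -0.68) and 28 nt (0.95, 0.53 and 0.85). DESeq2 was given the same counts without a block and with the same dispersion for all lengths. It called 5 lengths (45.5%), 20, 22 and 23 nt as lower and 29 and 30 nt as higher (18.2% of lengths). With this setting the SE was 0.348 at both 29 and 30 nt, against 1.37 and 2.63 in edgeR without the block. The DESeq2 calls at these lengths therefore do not reflect their spread between libraries. Since every read is counted in some length, the 11 tests are not independent.

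At 20 nt the null libraries had 2.70%, 2.26% and 1.44% and the wt transgene libraries 0.976%, 1.42% and 0.555%. The groups did not overlap, but wt transgene replicate 2 reached almost the level of null replicate 3. The fitted log2 fold change was -1.17 with the block (SE 0.231, edgeR adjusted p = 0.0293) and -1.12 without it (SE 0.436, edgeR adjusted p = 0.133).

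Endogenous siRNAs of the fly are 21 nt long. Reads of this length were 8.47%, 7.49% and 5.16% in null and 4.16%, 5.98% and 2.503% with the transgene. The share was lower with the transgene in each pool, by the least in replicate 2 (-1.51 points against -4.31 and -2.66), and the groups overlapped. The log2 fold change was -0.80 with the block (SE 0.221, edgeR adjusted p = 0.0447) and -0.74 without it (SE 0.391, edgeR adjusted p = 0.197). The mean share of 21 nt alone gave p = 0.2 in the two-sided exact permutation test, adjusted 0.24. Counted against raw reads, 6 of 11 lengths passed with the block (54.5%), the same ones but for 21 nt (edgeR adjusted p = 0.0585).

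The bulk of the short reads was 22 and 23 nt long. The 22 nt share was 17.7%, 18.3% and 12.1% in null and 8.72%, 10.5% and 6.995% with the transgene. The 23 nt share was 13.6%, 17.9% and 13.6% in null and 7.38%, 11.6% and 5.52% with the transgene. At both lengths every null library stood above every wt transgene library. With the block, the log2 fold change was -0.87 at 22 nt (SE 0.147) and -0.93 at 23 nt (SE 0.200), each at an edgeR adjusted p of 0.0293. Without the block both were -0.88, at edgeR adjusted p-values of 0.120 and 0.133. In points of the profile, 22 nt took the largest loss in replicates 1 and 2 (-8.99 and -7.79) and 23 nt in replicate 3 (-8.09).

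The 24 nt share separated no genotype. It was 15.8%, 18.2% and 16.4% in null and 15.5%, 18.7% and 11.6% with the transgene, higher with the transgene in 1 of 3 pools (edgeR log2 fold change -0.14, adjusted p = 0.575). Values of 24, 25, 26 and 28 nt are listed although the rule for named lengths did not select them, and this was decided after they had been seen. Reads of 25 nt were 17.5%, 17.8% and 18.9% in null and 24.3%, 22.2% and 19.6% with the transgene. All wt transgene libraries were higher, but the gap closed to 0.713 points in replicate 3, and 25 nt did not pass with the block (log2 fold change 0.28, edgeR adjusted p = 0.196) or without it (0.29, edgeR adjusted p = 0.197).

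The gain in points was largest at 26 nt in all 3 pools. The 26 nt share was 12.6%, 11.7% and 15.4% in null and 21.8%, 18.0% and 21.6% with the transgene, which left a clear gap between the groups. The log2 fold change was 0.63 with the block (SE 0.151, edgeR adjusted p = 0.0332) and 0.63 without it (SE 0.196, edgeR adjusted p = 0.120). Reads of 27 nt, the most frequent length in RNA bound to the tagged wt Piwi, were 7.60%, 5.54% and 10.6% in null and 12.1%, 9.66% and 15.7% with the transgene. Here null replicate 3 exceeded wt transgene replicate 2, while each pool differed by a similar amount (4.49, 4.12 and 5.10 points). The 27 nt log2 fold change was 0.68 with the block (SE 0.145, edgeR adjusted p = 0.0293) and 0.66 without it (SE 0.330, edgeR adjusted p = 0.197).

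At the long end the values depended on the pool. The 28 nt share was 3.25%, 0.747% and 5.22% in null and 4.38%, 1.80% and 8.02% with the transgene. It varied more between pools than between genotypes, and was higher with the transgene in every pool (log2 fold change 0.77 with the block, SE 0.231, edgeR adjusted p = 0.0485, and 0.62 without it, SE 0.856, edgeR adjusted p = 0.575). The 29 nt share was 0.777%, 0.0676% and 1.01% in null and 0.695%, 0.122% and 2.74% with the transgene. Most of its difference stood in replicate 3, and the fitted log2 fold change of 0.93 (edgeR adjusted p = 0.575) turned to -0.60 without wt transgene replicate 3 and to -0.05 without replicate 3 of both genotypes.

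Reads of 30 nt rested on 1 library. They were 0.0747%, 0.00858% and 0.119% in null, 0.0261% and 0.00977% in wt transgene replicates 1 and 2, and 5.09% in wt transgene replicate 3. Outside the null, the other genotypes also had high 30 nt shares in replicate 3, with 4.62% in the control, 9.26% with the loop of Ago3 and 32.3% with the GSS loop of glycine and serine repeats, which also had 3.29% in replicate 1. The fitted log2 fold change of 4.67 had an SE of 2.63 (edgeR adjusted p = 0.197), fell to 0.88 with the block (edgeR adjusted p = 0.650) and turned to -1.91 without wt transgene replicate 3. When 30 nt reads were left out of all libraries, the block fit called 8 of 10 lengths (80%), the same 7 and 29 nt, with 40% of lengths in each direction.

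**Figure D3:**
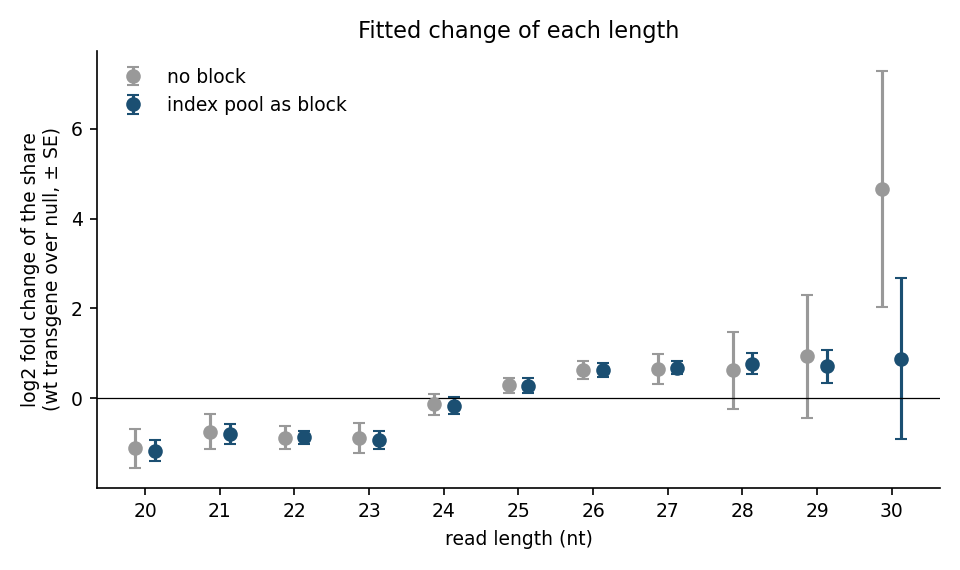
Fitted log2 fold change of each length share, wt transgene over null, with ± SE, from edgeR without a block (gray) and with the index pool as a block (blue), against read length (nt). The point estimates of both fits lie close together from 20 to 28 nt, and the bars of the block fit are the shorter ones. At 30 nt the estimate is 4.67 without the block and 0.88 with it.

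**Figure D4:**
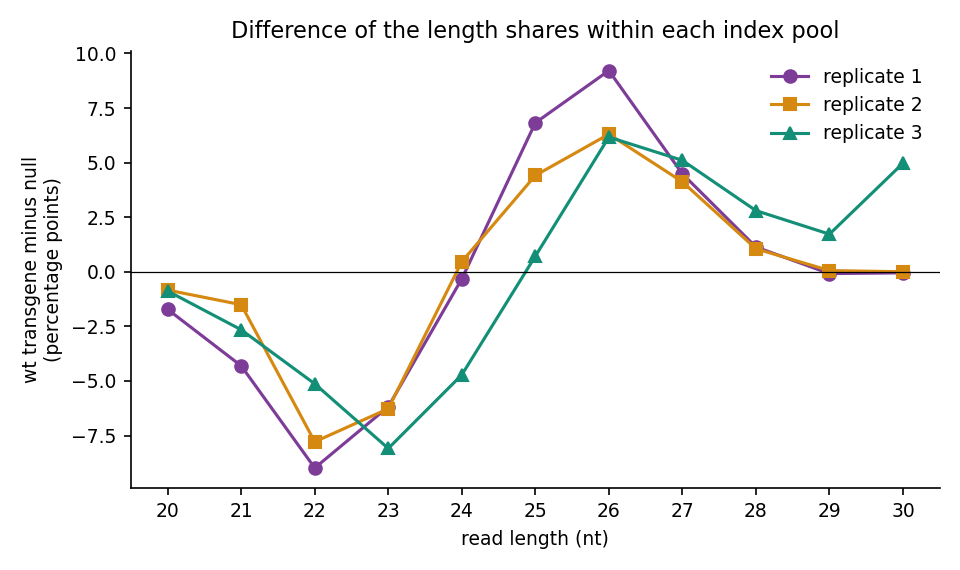
Difference of each length share, wt transgene minus null (percentage points), against read length (nt), with 1 line per index pool. All 3 lines are below 0 from 20 to 23 nt and above 0 from 25 to 28 nt, and only replicate 3 rises at 30 nt.

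Among the piRNA-sized reads themselves 24 nt was lower and 26 and 27 nt were higher with the transgene in every pool. Within 24–29 nt reads, 24 nt made up 27.5%, 33.7% and 24.2% in null and 19.7%, 26.5% and 14.7% with the transgene. The 26 nt share of the same reads was 21.8%, 21.7% and 22.8% in null and 27.6%, 25.6% and 27.2% with the transgene, without overlap. The 27 nt share was 13.2%, 10.2% and 15.7% in null and 15.3%, 13.7% and 19.8% with the transgene. Fitted over these 6 lengths with the index pool as a block, 3 passed (50% of the lengths tested, 33.3% higher and 16.7% lower): 24 nt with a log2 fold change of -0.52, 26 nt with 0.28 and 27 nt with 0.32, each at an edgeR adjusted p of 0.0372. The 28 and 29 nt lengths did not pass (edgeR adjusted p = 0.198 and 0.452), and in replicate 1 both were lower with the transgene, at 5.56% against 5.65% and 0.882% against 1.35% of 24–29 nt reads. Without the block 0 of 6 passed in edgeR, and 1 had an unadjusted p under 0.05. This comparison was added after the length shares had been seen.

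The whole profiles of null and wt transgene libraries differed, as the sum of absolute differences over the 11 lengths, by 43.3, 32.8 and 43.0 points in replicates 1 to 3. Libraries of the same genotype differed by 15.2, 20.3 and 31.0 points among the null and by 23.01, 28.8 and 47.1 points among the wt transgene libraries. The distance between wt transgene replicates 2 and 3 thus exceeded that between the genotypes in any pool. The largest gap of the cumulative profiles was 21.5 points at 24 nt in replicate 1, 16.4 at 23 nt in replicate 2 and 21.5 at 24 nt in replicate 3.

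The heterozygous control places the rescued profile. Within the pools the wt transgene profile was 9.81, 18.2 and 3.46 points from the control, and the null profile 45.8, 43.6 and 45.3 points. The wt transgene and null comparisons share the control libraries. In shares of 24–29 nt the controls had 77.7%, 72.5% and 80.8%, and the wt transgene libraries differed from the control of their pool by 1.06, -2.05 and -1.46 points. The mean difference of -0.818 points was within the spread of both groups (two-sided exact permutation test, p = 0.7) and turned to 2.05 points without wt transgene replicate 2 and to 1.09 without control replicate 3. Of 11 lengths, 0 passed in edgeR either without the block (percent called 0, and 0 lengths at an unadjusted p under 0.05) or with it (percent called 0, and 1 length at an unadjusted p under 0.05, 20 nt with a log2 fold change of 0.68 and an edgeR adjusted p of 0.141). A p above the threshold does not show that these profiles are alike, and the controls held 6792079, 1220928 and 887982 sized reads, which covered 38.5%, 3.72% and 45.8% of their mapped reads, against 90.6% to 92.8% in null and 92.3% to 93.5% in wt transgene libraries.

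RNA bound to the tagged wt Piwi of rescued ovaries was longer than the total RNA of the same genotype. In this library 92.4% of sized reads were 24–29 nt long and 4.03% were 20–23 nt long, with a mean of 26.5 nt. Its profile was 70.9, 89.6 and 45.4 points from the wt transgene libraries and 100.3, 112.7 and 84.0 points from the null libraries of replicates 1 to 3. The wt transgene library was nearer than the null library in each pool. The control libraries were 71.2, 81.5 and 44.5 points from the bound RNA, nearer than the wt transgene library in replicates 2 and 3. With 1 bound library no test was made.

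Reads with a single place in the genome took a larger share of the wt transgene libraries than of the null libraries. Unique reads (M = 1, where M is the number of places to which a read maps) were 21.9%, 20.8% and 18.2% of raw reads in null replicates 1 to 3 and 28.7%, 30.2% and 27.1% with the wt transgene. The groups were 20.3% ± 1.86 and 28.6% ± 1.55 (SD, n = 3 each) and did not overlap. The difference of 8.35 points had p = 0.10 in the two-sided exact permutation test and 0.133 after adjustment over the 4 mapping categories, and the pools differed by 6.83, 9.40 and 8.83 points. In mapped reads alone, unique reads were 26.3%, 24.4% and 22.03% in null and 31.7%, 33.1% and 30.0% with the transgene (difference 7.36 points, two-sided exact permutation test, p = 0.10). The direction was therefore the same when unmapped reads were set aside. The control libraries had 29.6%, 31.1% and 24.8% unique among mapped reads, and their replicate 3 lay within the null range. With the loop of Ago3 and the GSS loop, replicate 3 had 24.1% and 19.3%, the latter below every null library. Replicates 1 and 2 of these genotypes had 28.5% to 33.7%.

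Reads with up to 100 places (M ≤ 100) include those of repeated transposon copies. They were the largest category, with 61.3%, 64.5% and 64.5% of raw reads in null and 61.7%, 61.1% and 63.2% with the transgene. The groups overlapped and the pools did not share a direction (0.425, -3.43 and -1.28 points, two-sided exact permutation test, p = 0.3, adjusted 0.3). Reads with more than 100 places were rare, at 0.0418%, 0.0484% and 0.0516% in null and 0.0660%, 0.0647% and 0.0613% with the transgene. Every wt transgene library was higher (difference 0.0167 points, two-sided exact permutation test, p = 0.10, adjusted 0.133), and the genotypes came closest in replicate 3.

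Unmapped reads were 16.8%, 14.7% and 17.2% of raw reads in null and 9.55%, 8.72% and 9.64% with the wt transgene. The null libraries were all higher, and the wt transgene library differed from the null library by -7.28, -5.98 and -7.56 points in replicates 1 to 3. The difference of -6.94 points had p = 0.10 in the two-sided exact permutation test, adjusted 0.133. The control libraries had 9.78%, 9.47% and 10.9% unmapped reads and stood on the side of the transgene. Their length counts covered only 38.5%, 3.72% and 45.8% of mapped reads, so their mapping categories may not be like for like. Of the 9 other total RNA libraries, controls included, 1 had 19.3% (GSS replicate 1) and the rest had 6.50% to 10.9%, below every null library. The 4 categories of a library summed to its raw reads exactly. The larger unique share with the transgene stood beside a smaller unmapped share in every pool. In replicates 2 and 3 it also stood beside a smaller M ≤ 100 share (-3.43 and -1.28 points).

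**Figure D5:**
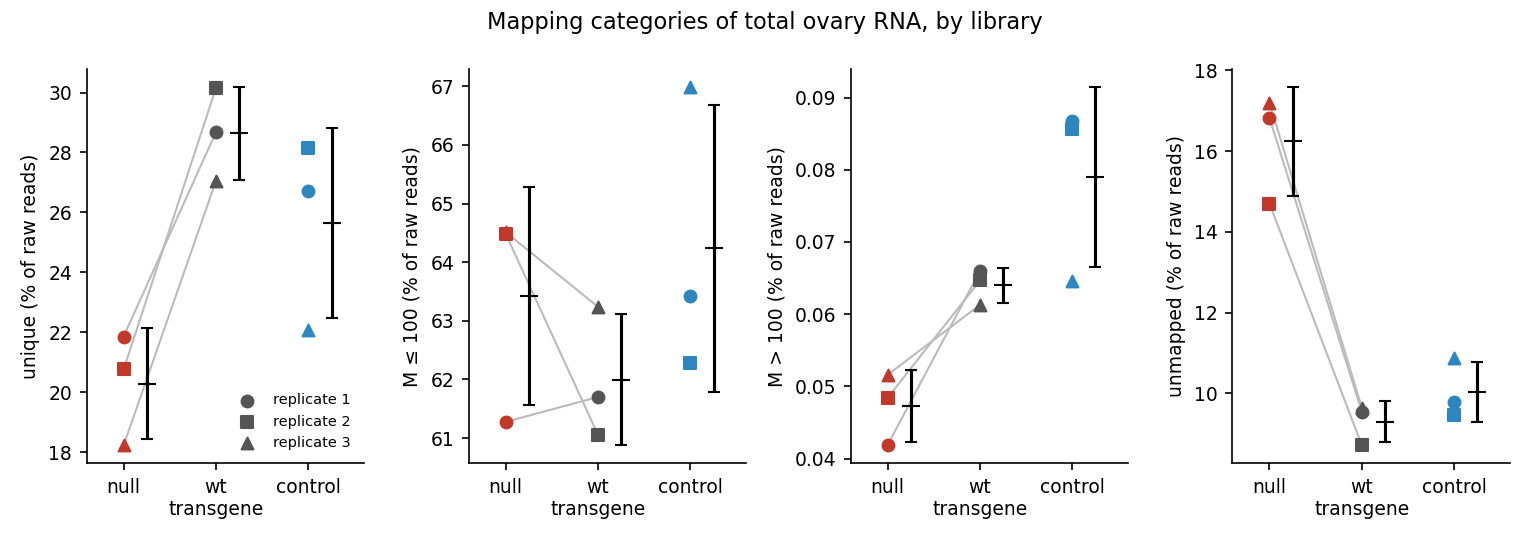
Unique, M ≤ 100, M > 100 and unmapped reads (% of raw reads) in null, wt transgene and control libraries. The length counts of the controls covered 3.72% to 45.8% of their mapped reads. Symbols mark the replicate number, gray lines join null and wt transgene libraries of a number, and bars show mean ± SD (n = 3). The axes do not start at 0. Unique reads lie at 18.2% to 21.9% in null and 27.1% to 30.2% with the transgene, and unmapped reads at 14.7% to 17.2% and 8.72% to 9.64%.

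The length and mapping measures did not order the replicates alike. Null replicate 3 had the highest 24–29 nt share of its genotype and the lowest unique share, and wt transgene replicate 2 had the lowest 24–29 nt share of its genotype and the highest unique share. The pool with the largest difference in 24–29 nt reads (replicate 1, 21.2 points) had the smallest difference in unique reads (6.83 points). With 3 pools no relation was tested.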

How the data were processed

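Size-selected small RNA libraries were made from total ovary RNA. As stated in the methods and labels, the authors trimmed reads with cutadapt, removed structural RNAs with STAR, aligned what remained to dm6, and deposited read counts by length (20–30 nt, unique and M ≤ 100 primary alignments) and by mapping category. The mapping tables hold other deposited values too, of which only count rows were used. Loss of reads at size selection or trimming would change length shares.

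Shares were computed per library. Counts per length were fitted with edgeR 4.0.16 in R 4.3.3 (quasi-likelihood, 1 common dispersion, no trend, library size the 20–30 nt reads, Benjamini-Hochberg over 11 lengths, threshold 0.05), with limma 3.58.1 and DESeq2 1.42.0 as alternatives. The edgeR SE was derived from the quasi-likelihood statistic. In DESeq2 the median of the dispersions estimated per length was used for all lengths. Single values were compared by two-sided exact permutation (20 splits, or 8 sign patterns within pools) in Python 3.11.15 with scipy 1.17.1. Depth and intervals are given with the results.

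Replicate numbers mark a shared index primer in the labels, hence the block. Deviations of log2 shares from the genotype mean correlated at -0.40, 0.95 and 0.84 in same-numbered null and wt transgene libraries (2 of 3 above 0.1), and at 0.63, 0.98 and 0.96 without 30 nt reads. Pairs of different numbers ranged from -0.94 to 0.71, the highest being null replicate 1 with wt transgene replicate 3 (0.72 without 30 nt reads, above the same-numbered pair of replicate 1), so that the pairing rests on the labels.

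Per-library values were to be given for the 3 lengths with the largest fitted rise, the 3 with the largest fall, 21 nt, 30 nt and all 4 mapping categories. Measures and lists were chosen with earlier results of these data known. Mean length within 24–29 nt and several alternatives were added after values had been seen. Alternatives were normalization, test, denominator, window, block and each library left out. Coordinates of piwi are those of the reference annotation, whose build has the coordinates of dm6.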

Additional observations from a re-analysis of the deposited data

How the results depend on the processing

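Of 11 lengths, 0 passed without a block in the wt transgene against null comparison, and the count rose to 7 with the replicate block, to 7 with limma and the block, to 6 with the block per raw read, to 8 of 10 with the block without 30 nt reads and to 3 of 6 with the block within 24–29 nt reads. DESeq2 without a block, with the same dispersion for all lengths, called 5 (29 and 30 nt higher, 20, 22 and 23 nt lower). The cause was not tested. TMM factors, DESeq2 size factors, limma, all 15 libraries in the fit, mapped or raw reads as library size, no 30 nt reads, and each library left out gave 0. A filter at 1% removed no length. Of the comparisons by permutation, none could pass 0.05, so their p-values say nothing of stability. With libraries left out in turn, the 24–29 nt difference ranged from 13.6 to 20.4 points, and that against the control from -3.07 to 2.05 points.

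Single lengths that turned direction against null when libraries were left out ranged from -0.31 to 0.024 at 24 nt, from -0.60 to 1.49 at 29 nt and from -1.91 to 5.36 at 30 nt (log2 fold changes). With the block and without replicate 3 they were 0.0030 at 24 nt and -0.67 at 30 nt, and within 24–29 nt reads 25 nt was at -0.068 without and -0.073 with the block. Against the control the ranges were -0.17 to 0.44 at 21 nt, -0.034 to 0.53 at 23 nt, -0.13 to 0.034 at 25 nt, -0.27 to 0.10 at 27 nt, -0.61 to 0.62 at 28 nt, -1.31 to 2.59 at 29 nt and -6.43 to 6.86 at 30 nt, and 28 nt was at -0.076 with the replicate block. Of all 591 alternative values, 29 of single lengths and 2 of group differences turned direction. Against the control the block left the count at 0, and the permutation results could change no call within pools.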
